A study of Mus musculus with 10 samples.

Results

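The genes described here are the autosomal protein-coding olfactory receptor genes of the mouse, taken as the RefSeq genes whose symbol is Olfr followed by digits. Of 1100 such genes, 129 had at least 1 measured CpG cytosine from 1000 bp before to 1000 bp after the gene, and the 95 with 3 or more are described below. The values come from reduced representation bisulfite sequencing, which reads mainly the CpG-rich fragments of a genome digest and tells methylated from unmethylated cytosines by bisulfite conversion. The DNA was that of 10 whole mouse embryos at embryonic day 7.5, each made into its own library, with 5 embryos labelled control and 5 labelled arsenic in the second experiment of the study. The authors' name for the deposited counts holds F2emb, and it does not state whether the embryos labelled arsenic were themselves exposed. The labels used here do not state the strain, the sex or the dose and timing of arsenic, and an embryo at this stage mixes several cell types, none of them an olfactory neuron. The deposited columns are numbered 1 to 10 and repeat no sample label, so no library could be assigned to an embryo, the control and arsenic embryos were not compared, and the values describe the 10 libraries together.

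Olfactory receptors are G protein-coupled receptors of the sensory neurons of the nose, and their genes form the largest gene family of the mouse. The coding sequence lies in a single exon, the genes sit in tandem clusters on many chromosomes, and each mature neuron expresses a single allele of a single gene while the rest of the family is held in heterochromatin. The family is divided into class I receptors, related to those of fish, whose genes form a cluster on chromosome 7, and class II receptors, which make up the rest. Embryos at gastrulation have no olfactory neurons.

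A methylation level is given here as the share of methylated reads at a cytosine, averaged over the cytosines of a gene. The pooled level first sums the reads of the 10 libraries at each cytosine, and the range that follows a level is that over the libraries. The 95 genes held 916 cytosines, none shared between genes, with a median coverage of 30 to 41 reads per cytosine over the libraries. In the table as a whole, reads summed over cytosines ran from 94583116 to 127102232 per library.

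Few olfactory receptor genes could be measured at all. The 95 genes were 8.64% of the family, whereas 87.1% of the 19565 other autosomal protein-coding genes had 3 or more cytosines. The measured genes held a median of 7 cytosines, against 74 in the 17046 other genes that met the same rule, and 32 of the 95 held only 3 or 4. The RefSeq windows that span 250 bases before to 50 bases after the annotated gene start in GRCm38.p6 were also poor in CpG. In 72.4% of the receptor windows the annotated start was an ATG, against 4.48% of the windows of other protein-coding genes, so most receptor windows hold the sequence around a start codon and not around a start of transcription, and the windows of both sets are not of a like kind. Over 938 windows of 934 olfactory receptor genes the median was 1 CpG, and 33.6% of windows held none. In 19147 windows of other protein-coding genes the median was 15 CpGs and 2.97% held none. The motif CCGG, the site cut by MspI and its own reverse complement, was found in 4.90% of olfactory receptor windows, in 66.4% of windows of other protein-coding genes and in 53.5% of all autosomal windows. Among the 79 windows of measured receptor genes it was found in 16.5%.

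Of the measured genes, 11 had a measured cytosine within the window around the annotated start, and 5 of these windows held 4 or more. They are printed because they held the most measured cytosines of the 11 windows, and none is shown to be a promoter. The sequences run 5′ to 3′ on the strand of the gene, with the measured CpGs in capitals. Olfr281 is read from the plus strand of chr15:98456062-98456361, Olfr750 from the minus strand of chr14:51071393-51071692, Olfr1394 from the plus strand of chr11:49159766-49160065, Olfr15 from the plus strand of chr16:3838725-3839024 and Olfr155 from the plus strand of chr4:43854042-43854341.
Olfr281: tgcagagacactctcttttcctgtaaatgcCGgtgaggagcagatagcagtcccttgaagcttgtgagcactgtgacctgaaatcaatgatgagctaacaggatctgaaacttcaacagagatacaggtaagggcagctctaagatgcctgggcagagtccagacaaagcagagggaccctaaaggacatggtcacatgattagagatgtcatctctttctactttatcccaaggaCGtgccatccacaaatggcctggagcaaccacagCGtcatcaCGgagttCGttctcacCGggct
Olfr750: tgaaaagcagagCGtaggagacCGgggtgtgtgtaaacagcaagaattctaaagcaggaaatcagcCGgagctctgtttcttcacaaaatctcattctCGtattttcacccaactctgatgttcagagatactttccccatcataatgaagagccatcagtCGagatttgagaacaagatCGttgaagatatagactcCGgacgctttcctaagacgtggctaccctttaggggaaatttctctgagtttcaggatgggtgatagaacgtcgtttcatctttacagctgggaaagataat
Olfr1394: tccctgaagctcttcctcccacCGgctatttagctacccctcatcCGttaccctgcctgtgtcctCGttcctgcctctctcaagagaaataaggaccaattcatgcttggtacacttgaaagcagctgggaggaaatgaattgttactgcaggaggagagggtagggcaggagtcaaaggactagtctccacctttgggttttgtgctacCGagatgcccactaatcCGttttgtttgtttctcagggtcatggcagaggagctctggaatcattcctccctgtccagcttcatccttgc
Olfr15: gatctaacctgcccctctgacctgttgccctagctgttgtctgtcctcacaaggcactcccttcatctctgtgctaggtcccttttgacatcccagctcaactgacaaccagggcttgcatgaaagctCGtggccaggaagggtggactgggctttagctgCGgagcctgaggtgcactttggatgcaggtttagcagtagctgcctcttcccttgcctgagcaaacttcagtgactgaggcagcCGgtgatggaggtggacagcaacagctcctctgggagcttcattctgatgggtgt
Olfr155: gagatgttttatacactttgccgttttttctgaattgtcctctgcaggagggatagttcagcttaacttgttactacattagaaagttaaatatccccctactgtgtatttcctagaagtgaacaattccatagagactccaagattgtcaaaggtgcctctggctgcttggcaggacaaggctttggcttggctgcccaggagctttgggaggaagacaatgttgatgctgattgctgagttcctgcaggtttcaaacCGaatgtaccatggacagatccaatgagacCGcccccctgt

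In Olfr281, Olfr1394 and Olfr15 the annotated start is an ATG, so the last 50 bases are coding sequence, and in Olfr281 these hold 4 of the 6 measured CpGs. In Olfr155 both measured CpGs lie past the annotated start, and in Olfr1394, Olfr15 and Olfr750 all lie before it. All 54 measured cytosines that could be placed in the windows of olfactory receptor genes fell on a CG of the printed build. The Olfr281 window was methylated at 62.2% over 10 cytosines (lowest library 55.9%, median 62.2%, highest 73.1%). The Olfr750 window was at 48.3% over 11 cytosines (41.0%, 49.1% and 53.3%). The Olfr1394 window was at 46.2% over 9 cytosines (34.8%, 48.8% and 56.3%). The Olfr15 window stood at 42.9% over 5 cytosines (31.9%, 43.3% and 47.9%) and the Olfr155 window at 37.2% over 4 cytosines (25.3%, 36.1% and 49.4%). The Olfr281 range lay above those of Olfr750, Olfr15 and Olfr155 and overlapped slightly with that of Olfr1394. Over the 11 windows the level ran from 37.2% to 62.2% with a median of 44.7%.

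The measured olfactory receptor genes were methylated to an intermediate level. The median of the 95 genes was 53.0% (50.3% to 55.5% over the libraries), with quartiles of 44.7% and 59.3%. A level of 35 to 65% was found in 78 genes and a level over 65% in 12. Of the 17046 other genes, 7176 and 1093 were at these levels. By the same rule, the other protein-coding genes had a median of 33.8% (32.8% to 34.8%), with quartiles of 15.7% and 51.0%. The lowest library of the receptor genes lay above the highest library of the other genes. Only 1 of the 95 genes, Olfr94, was under 20% methylated, where 30.9% of the other genes were. The other 94 genes included 3 that were under 20% in at least 1 library, and 91 genes were at 20% or over in every library. The contrast with other genes is not matched on CpG number, which is taken up below. Other genes with fewer than 20 cytosines had medians of 51.5% to 52.7% by class, and smaller shares of them were under 20%.

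**Figure D1:**
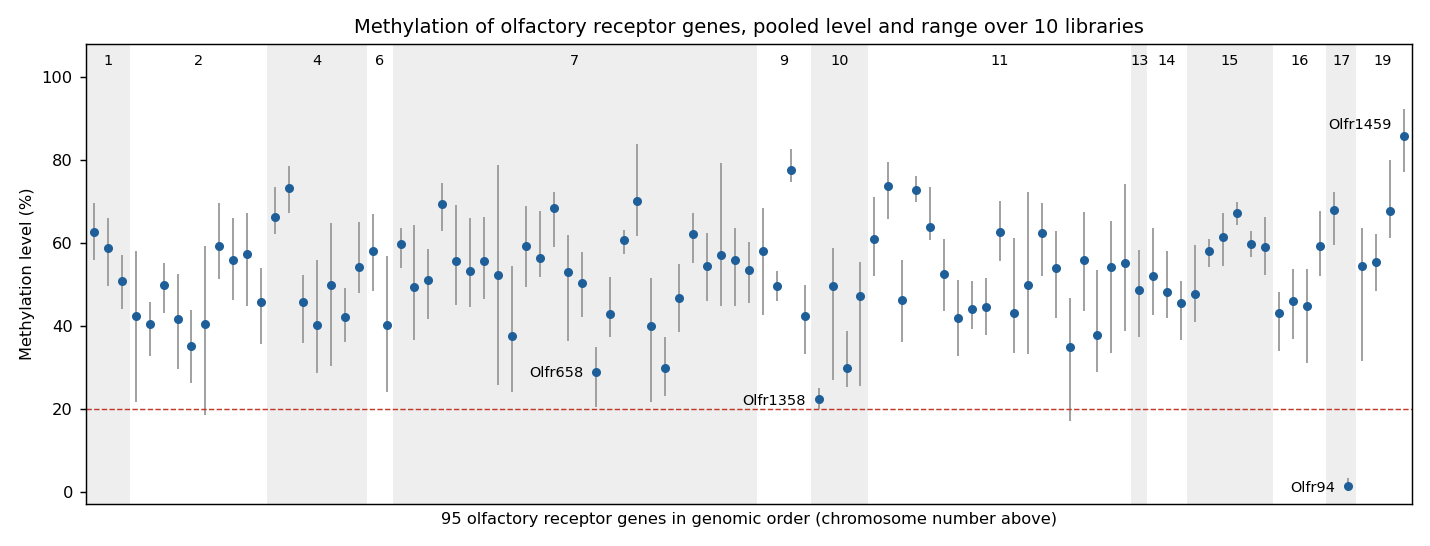
Methylation level in percent of each of the 95 olfactory receptor genes in genomic order, with the chromosome number above. Points are pooled levels, bars run from the lowest to the highest of the 10 libraries, and the dashed line marks 20%. Olfr94 on chromosome 17 is the only point under the line, and Olfr1459 on chromosome 19 is the highest at 85.7%.

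The libraries differed little in the level of the family. The median of the 95 genes was lowest in library 3 at 50.3%, followed by library 1 at 50.4% and library 9 at 50.8%. It was highest in library 4 at 55.5%, followed by library 6 at 54.2% and library 5 at 54.1%. Library 4 was the shallowest over the 916 cytosines, with 35340 reads against 37293 to 47174 in the other libraries, and it was the highest library for 20 of the 95 genes. Library 9, with 41040 reads, was the lowest library for 19 genes. Whether depth plays a part in these orders was not tested. The numbers of the libraries are those of the table and not of the labels.

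**Figure D2:**
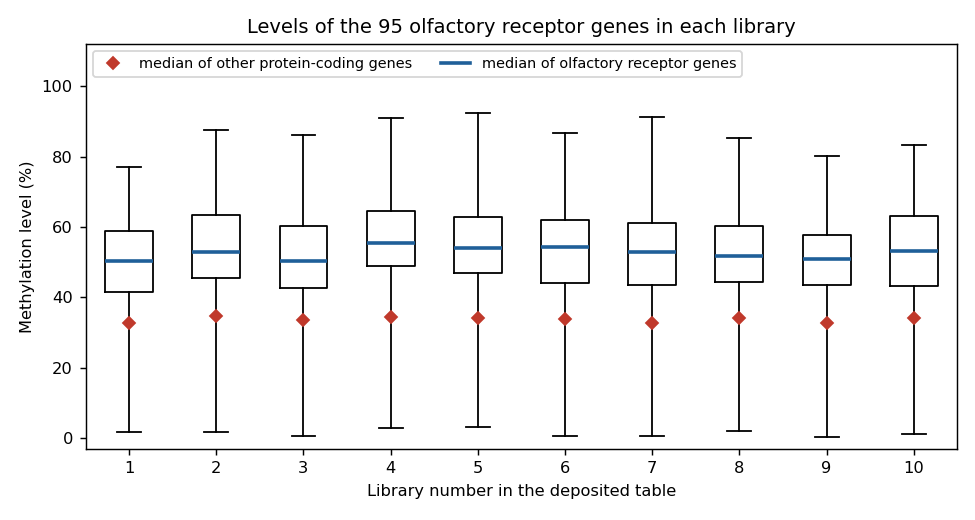
Methylation level in percent of the 95 olfactory receptor genes in each of the 10 libraries. Boxes span the quartiles with the median in blue, whiskers reach the lowest and highest gene, and red diamonds are the median of the other protein-coding genes, which stays between 32.8% and 34.8% while the receptor median stays between 50.3% and 55.5%.

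Receptor genes with more measured cytosines were more methylated, though not at every step, whereas other genes were less methylated at 20 or more. The 32 receptor genes with 3 or 4 cytosines had a median of 46.4% (44.3% to 51.5% over the libraries). Without the low cytosines at a spacing described below, a setting chosen after seeing the data, the median of this class was 48.2%. The 29 genes with 5 to 9 cytosines stood at 55.1%, the 23 with 10 to 19 at 54.0%, the 8 with 20 to 39 at 60.6% and the 3 with 40 or more at 67.3%. For the 11 genes with 20 or more together the median was 61.6% (57.7% to 66.1%), and its range did not overlap that of the genes with 3 or 4. Other protein-coding genes had a median of 51.5% (49.7% to 54.4%) at 3 or 4 cytosines, which overlapped the range of the receptor genes, and of 30.8% (29.9% to 31.6%) at 20 or more. Of the other genes, 6.15% were under 20% at 3 or 4 cytosines, 10.7% at 5 to 9 and 18.2% at 10 to 19. The receptor shares in these classes were 0%, 0% and 4.35%. None of the 11 receptor genes with 20 or more cytosines was under 20%, against 33.5% of the 14797 other genes in that class. Other genes no longer than 2000 bp, which are closer in length to a receptor gene, stood at 53.9% with 3 or 4 cytosines and at 6.51% with 20 or more.

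Across the 95 genes the Spearman correlation of level and cytosine number was 0.36, and it was between 0.23 and 0.34 in the single libraries. It was 0.38 without Olfr94 and 0.36 among the 68 receptor genes of at most 1300 bp. Across the 17046 other genes it was −0.13. Per kb of window rather than per gene, the correlation was 0.12 in receptor genes and between −0.0056 and 0.18 in the single libraries, against −0.41 in other genes. Genes of 1 table share libraries and base composition, and the correlations are descriptions.

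**Figure D3:**
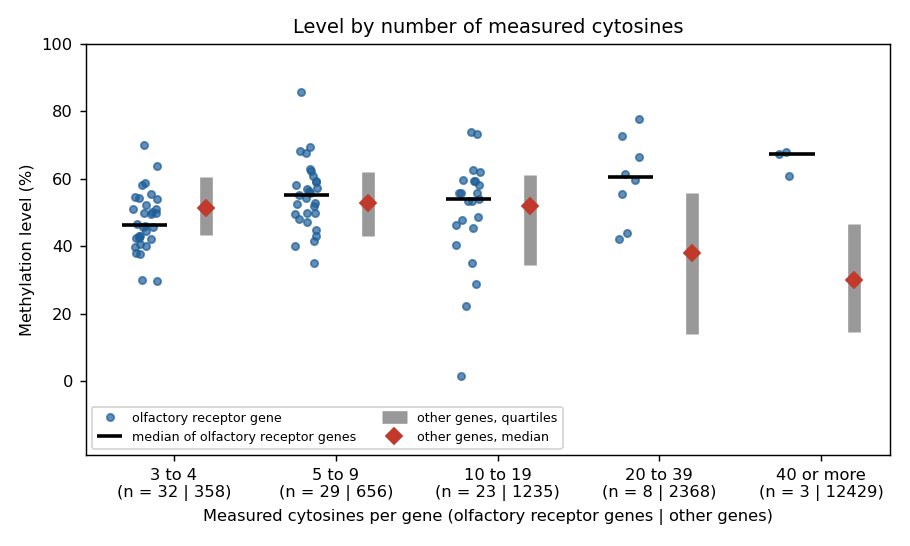
Methylation level in percent against the number of measured cytosines per gene, in 5 classes. Blue points are olfactory receptor genes with their median as a black bar, grey bars are the quartiles of the other protein-coding genes and red diamonds their median. Receptor medians run from 46.4% in the first class to 67.3% in the last, those of other genes from 51.5% to 29.9%.

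The receptor genes with the most cytosines were Olfr687, Olfr283 and Olfr91. Olfr687, a class I gene on chromosome 7 (105227717 to 105276461), was methylated at 60.7% over 46 cytosines, with a lowest library of 57.3%, a median of 61.7% and a highest of 63.2%. Olfr283 on chromosome 15 (98378096 to 98379197) was at 67.3% over 40 cytosines (64.2%, 67.6% and 70.0%). Olfr91 on chromosome 17 (37092845 to 37132991) was at 68.0% over 40 cytosines (59.6%, 68.3% and 72.3%), and 21 of these lay inside the pseudogene Gm19807. With a coverage of at least 20 in every library, Olfr91 stood at 60.5%, Olfr687 at 61.5% and Olfr283 at 67.3%. All 3 ranges lay above the median of the family. Olfr687 and Olfr91 are annotated over 48745 and 40147 bp, far beyond a receptor's coding sequence, so their cytosines lie partly in sequence away from the coding exon. Exons and introns were not analysed here. In 6 of the 95 genes, Olfr91 included, at least 1 cytosine lay inside another annotated gene, and the other 89 had a median of 52.5%.

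Olfactory receptor genes lie in clusters, here taken as runs with gaps of at most 1000000 bp, which gave 48 runs, 9 of them of a lone gene. A measured gene was found in 31. The share of genes that could be measured differed widely between clusters. It was 8 of 222 genes (3.60%) in the largest, on chromosome 2 (85330967 to 90401674), and 1 of 94 (1.06%) on chromosome 9 (37711348 to 40188094). It was 6 of 9 (66.7%) in the cluster on chromosome 15 (98186011 to 98498406) and 4 of 6 (66.7%) in one on chromosome 4 (43695000 to 43855463). The start windows of the chromosome 15 cluster held a median of 6 CpGs (7 windows), those of the large chromosome 2 cluster a median of 1 (187 windows). Over the family, windows of measured genes held a median of 2 CpGs and those of the other receptor genes a median of 1.

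The 5 clusters with at least 5 measured genes had medians between 47.9% and 59.4%. The chromosome 15 cluster had the highest median of the 5, at 59.4% over 6 genes (56.1% to 63.5% over the libraries), from Olfr287 at 47.8% to Olfr283 at 67.3%. A cluster on chromosome 7 (140162010 to 140705191) had a median of 55.9% over 5 genes (47.3% to 60.2%), and its gene with the most cytosines, Olfr522, was at 62.1% over 12 (55.1%, 62.9% and 67.2% in the lowest, median and highest library). The class I cluster on chromosome 7 (102476773 to 105369317) had a median of 54.5% over 14 genes (50.2% to 59.0%), against 52.1% (49.7% to 55.5%) over the 81 class II genes, and these ranges overlapped. Olfr649, a class I gene with 7 cytosines, was the family's median gene at 53.0% (36.3%, 55.2% and 61.9%).

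On chromosome 11 (58454915 to 59614225) the median was 49.9% over 9 genes (43.6% to 59.1%), where Olfr30 had the most cytosines and was at 44.1% over 22 (39.3%, 44.5% and 50.8%). The large chromosome 2 cluster had a median of 47.9% over 8 genes (45.6% to 52.9%). Its range lay below that of the chromosome 15 cluster and overlapped those of the other 3. Its value rests on 54 cytosines, and was 41.6% with flanks of 500 bp and 55.9% with at least 5 cytosines per gene. Olfr52 had the most of them, and was at 35.1% over 13 (26.3%, 34.9% and 43.7%).

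The receptor genes were methylated at a level near, and in most clusters below, that of the sequence between them. Cytosines inside the clusters but over 1000 bp from any annotated gene had a mean level of 57.8% (55.4% to 59.6%, 8589 cytosines), the 916 cytosines of the receptor genes 55.1% (52.6% to 57.7%), and intergenic cytosines elsewhere on the autosomes 54.4% (52.4% to 56.1%). These ranges overlapped. In 24 of the 31 clusters the median of the measured genes lay below the intergenic level of the same cluster. This sets a median of gene levels against a mean over cytosines, and many of the clusters had only 1 or 2 measured genes. Single cytosines of receptor genes were mostly intermediate. Of the 916, 89.4% were at 20 to 80%, 4.26% were lower and 6.33% higher, while on the autosomes as a whole 33.4% were lower and 10.003% higher.

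Methylation was higher inside the genes than in their flanks over all cytosines, but not in every gene. Cytosines inside the annotated gene had a mean of 56.8% (54.3% to 59.5%, 698 cytosines in 74 genes) and those in the flanks 49.5% (47.3% to 51.9%, 218 cytosines in 44 genes), ranges that did not overlap. In genes of at most 1000 bp the mean was 57.9% inside, 48.9% before the start and 50.05% after the end. Most genes contributed to only 1 of these places, so this is largely a comparison between genes. The strand was known for 79 genes from the table of start windows. In the 8 genes measured both inside and before the start, the level was higher inside in 5, and the difference ran from −9.94 to 34.4 points with a median of 1.02. In the 13 measured both inside and after the end it was higher inside in 9, and the difference ran from −32.7 to 20.1 points with a median of 2.08. In single libraries these counts ran from 3 to 7 of 8 and from 6 to 9 of 13.

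The single exception under 20%, Olfr94, was nearly unmethylated. Olfr94 lies on chromosome 17 (37196806 to 37197966, minus strand) in a cluster of 46 receptor genes. Its level was 0.29% in the lowest library, 1.48% in the median and 3.26% in the highest, and 1.39% pooled. Of 4972 reads summed over its cytosines, 69 were methylated (1.39%, 95% Wilson interval 1.10% to 1.75%). The interval covers counting error only and is too narrow, since neighbouring cytosines can share a read and PCR copies are not told apart. All 12 of its cytosines lay within 96 bp inside the gene, and all 12 were on the plus strand, with no minus-strand cytosine in the table to set beside them. Of the 95 genes, 23 were read on 1 strand only, and the other 22 of these were between 35.03% and 85.7%. The nearest other gene, the ubiquitin-like Ubd (37193892 to 37196101), ended 1098 bp from these cytosines. Olfr91, the other measured gene of the cluster, was at 68.0%.

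The next genes above the limit were Olfr1358 and Olfr658, which combined low and intermediate stretches. Olfr1358 on chromosome 10 (78498183 to 78521283, plus strand) was at 22.3% over 18 cytosines (19.96%, 22.05% and 25.1% in the lowest, median and highest library). Its first 14 cytosines (78520409 to 78520644), inside the gene near its 3′ end, had a mean of 14.0%, and the last 4 (78521215 to 78521568), across that end, had 51.4%. Without flanks the gene stood at 16.9%, on the other side of the limit. Olfr658 on chromosome 7 was at 28.9% over 11 cytosines (20.5%, 29.2% and 35.02%). All 11 lay beyond the higher-numbered end of the gene and inside the pseudogene Usp17le-ps, the first 6 with a mean of 15.4% and the last 5 with 45.2%. Olfr658 is thus a low value of its flank, with no cytosine measured in the gene itself.

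**Figure D4:**
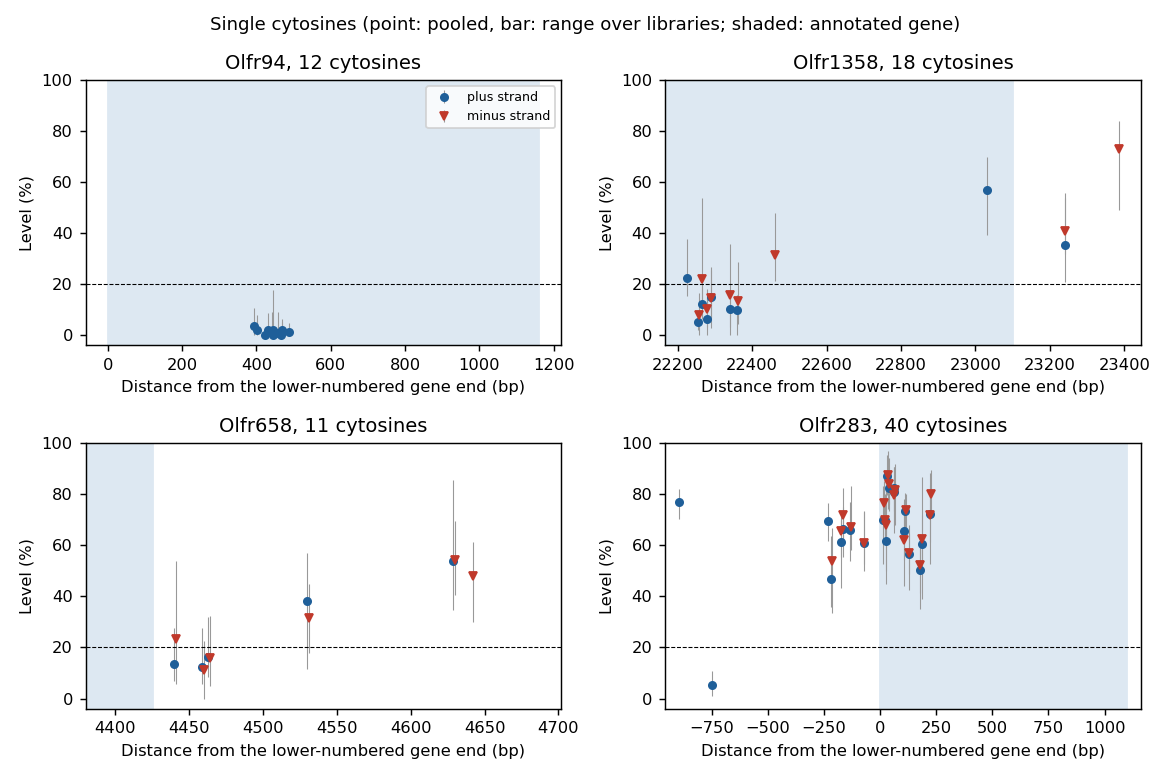
Methylation level in percent of single cytosines in Olfr94, Olfr1358, Olfr658 and Olfr283 against the distance in bp from the lower-numbered end of the annotated gene, which is shaded. Points are pooled levels by strand and bars the range over the 10 libraries. The 12 cytosines of Olfr94 lie at the bottom, those of Olfr1358 and Olfr658 pass from low to intermediate levels, and Olfr283 is high apart from 1 cytosine at 5.27%.

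Together Olfr94, Olfr1358 and Olfr658 held 28 of the 39 cytosines under 20%, with 12, 11 and 5. Olfr1342, Olfr477 and Olfr775 held 2 each, and Olfr1033, Olfr283, Olfr398, Olfr52 and Olfr872 held 1 each. The other 84 genes had none.

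The low cytosines of 4 genes had a spacing in common. The levels on both strands of a CpG were usually close, with a median difference of 3.55 points over 251 CpGs of receptor genes read on both strands, and 2.20 points over 745717 on the autosomes. Strands differed by 30 points or more at 6 of the 251 CpGs (2.39%), against 1.55% on the autosomes, and the 6 lay in pairs in Olfr477, Olfr775 and Olfr872. These genes were singled out after their values were seen. In Olfr477 the first CpG was at 48.3% (plus) and 4.44% (minus), and the CpG 150 bp further on was at 4.8% and 62.1%. In Olfr775 the values were 51.6% and 3.07%, then 5.11% and 59.4% after 150 bp. In Olfr872 they were 79.7% and 3.67%, then 41.3% and 73.8% after 149 bp. In all 3 genes the minus strand was the lower one at the first CpG and the plus strand at the second.

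The same arrangement was found across the autosomes. Of 5745 autosomal CpGs whose minus strand was lower by 30 points or more, the next CpG with a low plus strand lay exactly 150 bp on in 3341 and 149 bp on in 1361, but 148 bp on in only 11. Olfr283 had 1 plus-strand cytosine at 5.27% at this spacing from one at a higher level. In these 4 genes, 6 cytosines under 20% lay 149 or 150 bp from a same-strand cytosine at least 30 points higher. Without them Olfr477 was at 55.2% in place of 29.9%, Olfr775 at 55.5% in place of 29.8%, Olfr872 at 64.9% in place of 49.6% and Olfr283 at 68.9% in place of 67.3%. Olfr477 and Olfr775 then kept 2 cytosines each, under the minimum of 3. The low cytosines of Olfr1358 and Olfr658 had no such spacing. In Olfr94 it could not be seen, since all 12 cytosines lie within 96 bp. What produces the spacing was not tested.

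**Figure D5:**
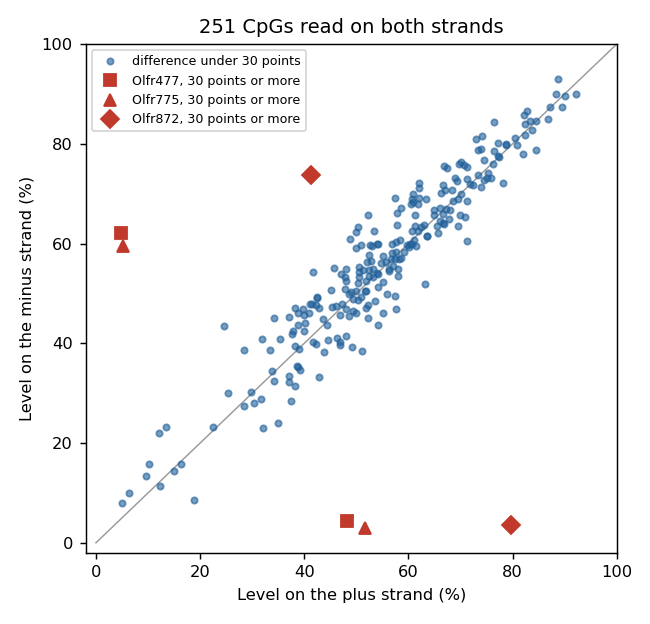
Methylation level in percent on the minus strand against that on the plus strand for the 251 CpGs of olfactory receptor genes read on both strands, with the line of equality. Blue points differ by under 30 points, and the 6 red symbols, a pair each in Olfr477, Olfr775 and Olfr872, differ by more.

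At the upper end, 12 of the 95 genes were over 65%, beside 1093 of the 17046 other genes. The highest was Olfr1459 on chromosome 19 (13145734 to 13146657, minus strand), at 85.7% over 8 cytosines (77.2%, 86.4% and 92.4% in the lowest, median and highest library). These 8 lay in the flank, within 86 bp and on the minus strand only. Their reads were 1579, of which 85.7% were methylated (Wilson interval 83.9% to 87.3%). Olfr18 on chromosome 9 (20313892 to 20336094) was at 77.7% over 23 cytosines (74.7%, 77.3% and 82.6%), all within 365 bp. Olfr1395 on chromosome 11 (49148259 to 49149212) was at 73.9% over 16 cytosines (65.8%, 75.1% and 79.6%). The ranges of Olfr18 and Olfr1395 overlapped each other, and all 3 lay wholly above the quartile of 59.3%. Olfr1395 is a neighbour of Olfr1394 at 46.3% and Olfr56 at 61.0%, so adjoining genes of a cluster could stand far apart.

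The spread between libraries was wide for most genes. The median range between the lowest and the highest library was 16.9 points over the 95 genes, 17.6 points for those with 3 or 4 cytosines and 13.8 points for the 34 with 10 or more. Among those 34, the widest ranges were those of Olfr851 on chromosome 9 (58.0% pooled, from 42.8% to 68.4%, median library 58.3%), the class I gene Olfr550 (55.7%, from 45.1% to 69.1%, median 53.9%) and Olfr225 on chromosome 11 (55.9%, from 43.6% to 67.6%, median 54.7%). The lowest library was library 9 in Olfr550 and Olfr225 and library 7 in Olfr851, and the highest was library 4 in Olfr851 and Olfr225 and library 8 in Olfr550. The narrowest were those of Olfr94 at 2.96 points, Olfr1358 at 5.16 and Olfr283 at 5.73. At 1.39% pooled, Olfr94 lies near the lower limit of the scale, which bounds its range. A range this wide for a few cytosines read a median of 30 to 41 times includes counting error, and how far it exceeds it was not tested.

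Genes of the receptor pathway stood near the level of other genes. A list of regulators of receptor choice, heterochromatin factors, signalling proteins and receptor chaperones named 29 genes, of which 27 met the same rule. Their median was 33.3% (31.96% to 34.0%), near the 33.8% of all other genes, and 8 of the 27 were under 20%, where 30.9% of all other genes were. The medians were 28.4% for 10 regulators, 33.9% for 8 heterochromatin factors, 39.7% for 7 signalling genes and 48.7% for 2 chaperones. Of these, 4, 2, 2 and 0 were under 20%. The list was not matched to the receptor genes on cytosine number. Lhx2, a LIM homeodomain factor needed for receptor expression, was at 13.0% over 447 cytosines, and Kdm1a, a lysine demethylase, at 7.30%. Bptf, of the same list of regulators, was at 53.6%. Cbx3 and Suv39h2, a heterochromatin protein and a histone methyltransferase, were at 0.739% and 0.659%. They were the 2 heterochromatin factors under 20%, and Cbx1 and Cbx5 of that list were at 60.6% and 49.8%. Gnal, the olfactory G protein subunit, was at 18.2%, while Omp, a marker of mature olfactory neurons, was at 60.4% over 8 cytosines (57.6% to 62.1%). Lbr, a nuclear envelope protein that olfactory neurons lack, was the highest at 78.1%. These levels average the whole gene and its flanks and are not those of regulatory sequence.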

How the data were processed

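Reduced representation bisulfite sequencing was done on 10 embryos. Reads were processed with Trim Galore, Bismark and methylKit on mm10, per the submitters' processing notes; no label states versions, settings or deduplication. The authors deposited read counts per CpG cytosine, not normalized: coverage, methylated and unmethylated reads, every value of coverage being 10 or more. All 30 such columns matched no sample's label alone, so they were used only as unassigned libraries, and the planned permutation test between groups was not run. They are listed with the unit other, although they hold counts, because they could be entered only without a sample.

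Genes and windows around gene starts came from RefSeq GRCm38.p6, whose coordinates are those of mm10. Levels were computed with Python 3.11.15, numpy 2.4.6 and pandas 2.3.3, Spearman correlations and Wilson 95% intervals with scipy 1.17.1. The code was tested on simulated data. The genes and lists were chosen with earlier results of these data known. Named were the gene under 20%, the 3 highest, the 3 with most cytosines, the 3 widest and 3 narrowest ranges at 10 or more cytosines, the gene with most cytosines per cluster of at least 5, and the gene nearest the median, leaving out genes with 3 cytosines; other genes were named after their values were seen. Alternatives were other coverage minimums, flanks, cytosine minimums, weighting, merged strands, gene neighbourhoods, depth and left-out libraries.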

Additional observations from a re-analysis of the deposited data

How the results depend on the processing

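The median of the receptor genes was 55.7% with a coverage of at least 20 in every library (63 genes left) and 55.9% with at least 5 cytosines per gene, and it moved by less than the SD of the libraries under the other settings. It was above the median of the other genes throughout. The median of the other genes was 36.0% with that coverage, 37.9% without flanks, 35.1% from summed reads and 14.1% among genes of at most 2000 bp, a setting chosen after seeing the data. The count under 20% was 2 without flanks (Olfr94 and Olfr1358) and 0 when the 4 genes within 1000 bp of another protein-coding gene, Olfr94 among them, were left out. The median of receptor genes with 20 or more cytosines was 64.4% at a coverage of at least 20, 66.3% without flanks and 66.8% with merged strands, and that of genes with 3 or 4 cytosines was 50.9%, 48.5% and 49.8%, and 49.9% with flanks of 500 bp. Leaving out each library in turn gave a receptor median of 52.5% to 53.3% and moved none of these results by more than that SD. A single library has little weight in a pooled level, so this outcome was close to fixed in advance and says little about stability. The receptor genes share no cytosine, so giving each to its nearest gene changed nothing. For clusters and named genes, 15 of 432 values under other settings moved by more than the SD. Many of the 432 could not move or could hardly do so, so the count does not measure stability. Cytosine minimums, gene neighbourhoods and the nearest-gene setting leave a single gene's level as it is, and a left-out library shifts it little. The large chromosome 2 cluster, at 47.9%, ran from 41.6% with flanks of 500 bp to 55.9% with at least 5 cytosines per gene. No paired analysis was possible because the numbered columns match no embryo. Coverage of 30 to 41 reads per cytosine limits the precision of single cytosines and of genes with few.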

Other observations

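Receptor pseudogenes, which the rule left out, had levels like those of the genes. Of 315 autosomal pseudogenes with Olfr symbols, 31 had a measured cytosine and 23 had 3 or more. Their median was 56.1% (48.9% to 56.3% over the libraries), from 27.7% to 78.8%, and none of the 23 was under 20%. Of other protein-coding genes 30.9% were, a share not matched on cytosine number. None of the 6 olfactory receptor genes on chromosome X had a measured cytosine within 1000 bp.

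Other chemoreceptor families had intermediate medians, with single genes lower. The type 2 vomeronasal receptor genes, which respond to peptide and protein pheromones, had a median of 50.5% over 46 genes (47.7% to 54.8%), and 46 of their 122 annotated genes could be measured. The type 1 vomeronasal receptor genes had a median of 47.4% over 10 of 230 genes (44.2% to 56.6%), and the lowest of the 10 stood at 0.864%. The 3 measured trace amine-associated receptor genes had a median of 54.6%. Of the taste receptor genes, the 3 of type 1 had a median of 51.6% with the lowest at 19.7%, and the 1 of 35 of type 2 that could be measured was at 45.6%. The 1 of 3 formyl peptide receptor genes that could be measured was at 52.8%. The ranges of these families over the libraries overlapped that of the olfactory receptor genes.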
